A study of Rattus norvegicus and Ovis aries with 113 samples.

Results

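CatSper is the calcium channel of the sperm tail, and the transcripts of 10 genes of the channel and of proton handling in sperm were followed across sperm, brain and ovary of sheep and rats. The genes were chosen as a list by symbol: the pore subunits CATSPER1, CATSPER2, CATSPER3 and CATSPER4, the auxiliary subunits CATSPERB, CATSPERD, CATSPERG and CATSPERZ, the sperm sodium-proton exchanger SLC9C1 and the voltage-gated proton channel HVCN1. All 10 were present among the 38675 genes of the rat count table and the 31304 genes of the sheep table. The study sequenced polyadenylated RNA of brain and of a reproductive sample and asks which genes connect the nervous and the reproductive system. Sheep (Ovis aries) gave sperm and 10 dissected brain regions from each of 5 post-pubertal males, 55 libraries in all. The regions were the pons, the hippocampus (HC), the cerebellum (CB), the basal ganglia (BG) and 6 areas of cortex: visual (VC), motor (MC), frontal (FC), prefrontal (PC), entorhinal (EC) and posterior parietal (PPC), taken from one and the same hemisphere. Sprague Dawley rats gave 58 libraries: sperm, taken from seminal fluid, and whole brain of 15 post-pubertal males, and ovary and whole brain of 14 females. The labels name no genetic change in any group and no treatment was given, and each library of a group came from a different animal.

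The CatSper channel opens in the principal piece of the sperm flagellum when the cell interior turns alkaline and, in several species, when progesterone is present, and the calcium that enters drives hyperactivated swimming. The 4 pore subunits, one of each kind, form a single pore, and the auxiliary subunits CATSPERB, CATSPERG and CATSPERD form much of its extracellular canopy, while CATSPERZ is a small cytoplasmic subunit. SLC9C1 is a sperm-specific sodium-proton exchanger gated by voltage and cyclic nucleotides, and HVCN1 lets protons leave the cell, in sperm of some species and in phagocytes, B cells and microglia. These genes are transcribed in germ cells of the testis, and the mature sperm carries remains of their transcripts.

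Sperm libraries held 13698889 to 65146176 counts in sheep and 13714087 to 65107730 in rats, and every brain or ovary library held at least 38164144. Levels are given as CPM, counts scaled to a library of 1000000, with library sizes adjusted by trimmed mean of M values (TMM) factors, which bring the bulk of genes of all libraries of a species to a common level. In the 5 sheep sperm libraries these factors were 0.114 to 0.305, and 4 entries held 22.4% to 85.2% of their counts, so the scaled CPM is several times the plain CPM there. Rat brain libraries 1 and 4 had factors of 0.0785 and 0.141, and the rat sperm libraries 7, 16 and 17 held 663, 375 and 358 genes with 1 to 5 counts, against 3532 to 6339 in the other 12. Whether low counts were removed from these 3 libraries was not tested, so a 0 printed for rat 16 or 17 may not be a measured absence. The levels of a gene are compared between samples and not with those of another gene, since transcript lengths were not used. Sperm of both species carried the defining transcripts of late spermatids, but unevenly. The summed level of 12 such genes was 239 to 7998 CPM in sheep sperm, against 37.9 CPM at most in sheep brain. In rat sperm it was 295 to 27577 CPM, against 21.6 CPM at most in male rat brain. Sheep sperm also carried neutrophil transcripts, with 13819 to 158802 CPM over 6 genes, and squamous epithelial transcripts, with 4468 to 86125 CPM over 5 genes. Rat sperm carried 1620 to 11989 CPM of 6 epididymal genes. All 5 neuronal markers were called higher in female rat brain than in ovary, and all 5 granulosa and all 4 theca and luteal markers higher in ovary. In these bulk samples fewer cells of a type and less RNA per cell cannot be told apart.

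In the rat genome (GRCr8), CATSPER1, CATSPERG and CATSPERZ lie on chromosome 1 and each of the other 7 genes on a chromosome of its own. RefSeq promoter windows, from 250 bases before to 50 bases after an annotated start site, were held for 7 of the 10 genes and are of the same build. The 4 windows below are shown because their genes mark the ends of the pattern described further on: CATSPER3 and SLC9C1 were high in the sperm of a few rats and stayed at or under 0.549 and 0.0715 CPM in every rat brain and ovary, whereas CATSPERG and CATSPERZ stood at 4.04 and 7.09 CPM or more in every rat brain. Capitals mark the letters AACGG, the core bound by MYB factors such as the testis factor A-MYB, on either strand.
CATSPER3 (chr17:8846001-8846300, minus strand): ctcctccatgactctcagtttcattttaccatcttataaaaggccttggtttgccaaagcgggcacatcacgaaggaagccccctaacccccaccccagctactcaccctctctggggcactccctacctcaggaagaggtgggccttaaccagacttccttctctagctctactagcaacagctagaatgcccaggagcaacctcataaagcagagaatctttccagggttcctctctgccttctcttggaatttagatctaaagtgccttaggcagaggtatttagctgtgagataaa
SLC9C1 (chr11:68740825-68741124, minus strand): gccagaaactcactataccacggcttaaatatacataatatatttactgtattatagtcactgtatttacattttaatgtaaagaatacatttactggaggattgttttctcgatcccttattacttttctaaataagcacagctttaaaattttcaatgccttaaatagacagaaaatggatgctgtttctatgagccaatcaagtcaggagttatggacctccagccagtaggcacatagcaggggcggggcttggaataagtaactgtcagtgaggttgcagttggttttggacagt
CATSPERG (chr1:93646793-93647092, minus strand): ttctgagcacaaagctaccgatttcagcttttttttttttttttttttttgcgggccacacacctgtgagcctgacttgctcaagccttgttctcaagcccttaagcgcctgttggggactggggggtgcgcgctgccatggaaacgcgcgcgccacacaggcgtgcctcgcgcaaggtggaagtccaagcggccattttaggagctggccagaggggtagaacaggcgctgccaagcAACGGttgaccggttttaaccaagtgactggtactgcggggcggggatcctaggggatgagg
CATSPERZ (chr1:213547277-213547576, minus strand): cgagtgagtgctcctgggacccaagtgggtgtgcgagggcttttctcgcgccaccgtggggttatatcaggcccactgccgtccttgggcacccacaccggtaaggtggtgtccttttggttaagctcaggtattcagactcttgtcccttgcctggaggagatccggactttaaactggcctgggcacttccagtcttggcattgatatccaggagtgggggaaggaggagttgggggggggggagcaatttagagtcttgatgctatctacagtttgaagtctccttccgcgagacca
The window of CATSPERG, on the minus strand, holds AACGG 12 bases before the start site, and the other 3 windows do not hold it. These letters or their complement were in 17.3% of all 33469 promoter windows and in 1 of the 12 windows of the 7 genes. TGACG, the core of the cyclic AMP response element, was in 21.2% of all windows and in 0 of the 12, and GTTGCC, one arm of the X-box bound by RFX factors, was in 12.2% of all windows and in 0 of the 12. These motifs were chosen with the sequences already seen. A match describes letters, and the absence of one says nothing about a factor. The share of G and C was 56.7% for CATSPERG and 56.3% for CATSPERZ, 49.3% for CATSPER3 and 37.0% for SLC9C1, with a median of 51.7% over all windows.

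Several of the genes share sequence or a boundary with a neighbour in the rat annotation, and the sources used here do not state the strand setting of the counting, so reads of overlapping stretches cannot be assigned with certainty. CATSPERG (chr1:93616209-93646970) lies wholly within the span of LOC103689966. CATSPER2 (chr3:128822387-128842501) overlaps PDIA3, a chaperone of the endoplasmic reticulum, by 721 bases, HVCN1 (chr12:40001205-40030671) overlaps TCTN1, a ciliary transition zone gene, by 2523 bases, and CATSPERB (chr6:126148156-126526814) overlaps TC2N by 809 bases. CATSPERZ (chr1:213544032-213547326) starts 250 bases past the end of KCNK4, a potassium channel gene of neurons read from the same strand, and its promoter window fills that gap. CATSPER1 (chr1:212072371-212081179), CATSPER3 (chr17:8820738-8846063), CATSPER4 (chr5:151711415-151731083) and SLC9C1 (chr11:68674380-68740874) overlap no other annotated gene, and CATSPERD (chr9:1546903-1585470) overlaps LONP1 by 6 bases. Levels of sheep genes carry no positions here.

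In rats, the pore subunits were read at their highest in the sperm of a few animals, and all but CATSPER2 were at or near 0 in brain. CATSPER1 ranged from 0 to 16.7 CPM over the 15 sperm libraries, with a median of 0.0179 CPM. Its counts were 1000 in rat 14, 832 in rat 7, 278 in rat 3 and 53 in rat 13, and 0 to 20 in the other 11. Against this stood 1 count over the 15 male brain libraries, 0 counts over the 14 female brains and 6 counts over the 14 ovaries. Sperm and brain libraries overlapped, because 7 sperm libraries held no CATSPER1 count. On plain totals the pooled ratio of sperm to male brain was 2359, with an exact 95% counting interval of 423 to 93218 that covers counting error and not the spread between rats.

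CATSPER3 followed the same animals. Its level was 70.1 CPM in rat 14, 54.5 CPM in rat 7, 17.2 CPM in rat 3 and 4.78 CPM in rat 13, and 0 to 0.626 CPM in the other 11. Male brain reached 0.0695 CPM at most and 4 of its 15 libraries held no count. CATSPER4 ranged from 0 through a median of 0.642 CPM to 28.0 CPM in sperm, and 13 of the 15 sperm libraries lay above the highest male brain, at 0.147 CPM. The 2 sperm libraries without a CATSPER4 count were those of rats 16 and 17. CATSPER2 was also read in brain: sperm ranged from 0 through 3.87 to 145 CPM, male brain from 2.08 through 2.43 to 2.95 CPM. All sperm libraries but rat 16, with no count, lay above every male brain.

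**Figure D1:**
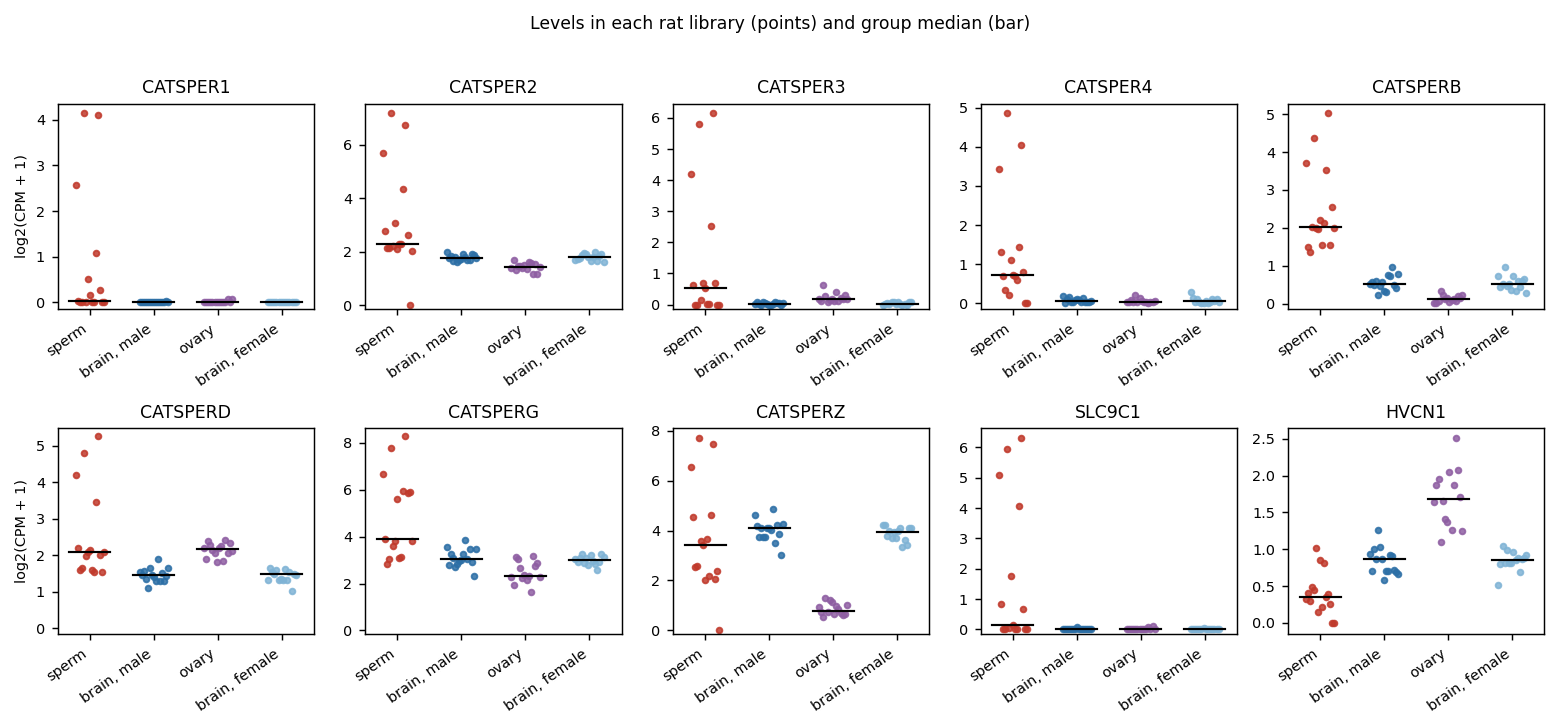
Level of each gene, as log2(CPM + 1) on the vertical axis with its own range in each panel, in every rat library (points) of the 4 groups, with the group median as a bar. A few sperm libraries stand far above the rest for 9 of the genes, whereas HVCN1 is lowest in sperm and highest in ovary.

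Differences were tested with edgeR's quasi-likelihood test, and a gene was called at a Benjamini-Hochberg adjusted p under 0.05 over all genes tested and a log2 fold change of at least 1 in size. In rat sperm against male brain 6 of the 10 genes passed the filter on low counts, and 5 were called higher and 1 lower, in a comparison in which 27.7% of the 20480 genes tested were called higher and 31.5% lower. The median log2 fold change was 2.701 over these 6 and -0.03 over all genes tested. CATSPER1, CATSPER3, CATSPER4 and SLC9C1 did not pass the filter, since too few sperm libraries held counts of them. With no filter all 4 were called higher, CATSPER3 by 8.57 ± 1.41 (SE) and CATSPER4 by 6.22 ± 0.93 (SE) on the log2 scale, with adjusted p-values from edgeR of 3.56e-06 and 7.13e-07. CATSPER2 was higher by 3.43 ± 0.68 (SE) on the log2 scale, or 10.8-fold (adjusted p from edgeR = 4.05e-05). Without the sperm libraries of rats 3, 7, 13 and 14, a setting added after the data were seen, CATSPER2 kept its direction at 0.80 (adjusted p from edgeR = 0.0336) and was no longer called.

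The auxiliary subunits were read in every tissue of the rat. CATSPERB, which belongs to the canopy of the channel, ranged from 1.57 through 3.03 to 31.7 CPM in sperm and from 0.169 through 0.422 to 0.942 CPM in male brain. No sperm library reached down to the brain libraries on the scaled level, and on plain totals the groups overlapped. The difference was 3.99 ± 0.47 (SE) on the log2 scale, or 15.9-fold (adjusted p from edgeR = 4.71e-09), and it was 2.63 and still called without rats 3, 7, 13 and 14. CATSPERD ranged from 1.91 through 3.24 to 37.5 CPM in sperm, and 10 of 15 libraries lay above the highest male brain, at 2.704 CPM. CATSPERD was higher by 2.30 ± 0.45 (SE; adjusted p from edgeR = 2.99e-05), and by 0.67 without rats 3, 7, 13 and 14 and 0.91 with voom, where it was no longer called.

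CATSPERG, another canopy subunit, had 198 to 19018 counts in each sperm library. Its level was 310 CPM in rat 14, 218 CPM in rat 7, 99.7 CPM in rat 3 and 61.0 CPM in rat 13. Rats 16, 15 and 10 followed closely with 59.1, 57.9 and 47.2 CPM, although rat 10 held 5 counts of CATSPER1 and rat 16 held 0. Male brain ranged from 4.04 through 7.18 to 13.6 CPM, and 8 sperm libraries lay above all of it. The difference was 3.10 ± 0.53 (SE) on the log2 scale, or 8.56-fold (adjusted p from edgeR = 4.58e-06). It was 1.52 without rats 3, 7, 13 and 14 and 1.89 with the animal as a block, and was called in both, but at 0.97 with voom it was not called.

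CATSPERZ did not hold one direction. In sperm it ranged from 0 through 9.75 to 209 CPM, and in male brain from 7.09 through 16.1 to 27.9 CPM. Rats 3, 7 and 14 lay above every brain library and 7 sperm libraries lay below every brain library. The fitted difference was 1.42 ± 0.65 (SE) on the log2 scale (adjusted p from edgeR = 0.0454). With the animal as a block, since sperm and brain came from the same rats, it was -0.45 (adjusted p from edgeR = 0.560), and with DESeq2 it was -0.32 (adjusted p = 0.568). It was -0.996 without rats 3, 7, 13 and 14 (adjusted p from edgeR = 0.0255), and 1.44 without rat brain library 4 (adjusted p from edgeR = 0.0526).

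The 2 genes of proton handling went opposite ways in rat sperm. SLC9C1 was read at 78.5 CPM in rat 14, 60.3 CPM in rat 7, 33.3 CPM in rat 3 and 15.9 CPM in rat 13, and at 0 to 2.43 CPM in the other 11, of which 6 held no count. Male brain held 3 counts of SLC9C1 in all, from a single library, and the pooled ratio on plain totals was 3805 with an exact 95% counting interval of 1302 to 18453. HVCN1 was low throughout sperm, at 0 through 0.271 to 1.02 CPM, against 0.494 through 0.825 to 1.39 CPM in male brain, and 12 of the 15 sperm libraries lay below every brain library. HVCN1 fell by 1.07 on the log2 scale (SE 0.40; adjusted p from edgeR = 0.0163), and by 0.87 without the libraries of rats 16 and 17, which hold no HVCN1 count, where it was no longer called. Without rats 3, 7, 13 and 14 it was -0.95 and not called.

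**Figure D2:**
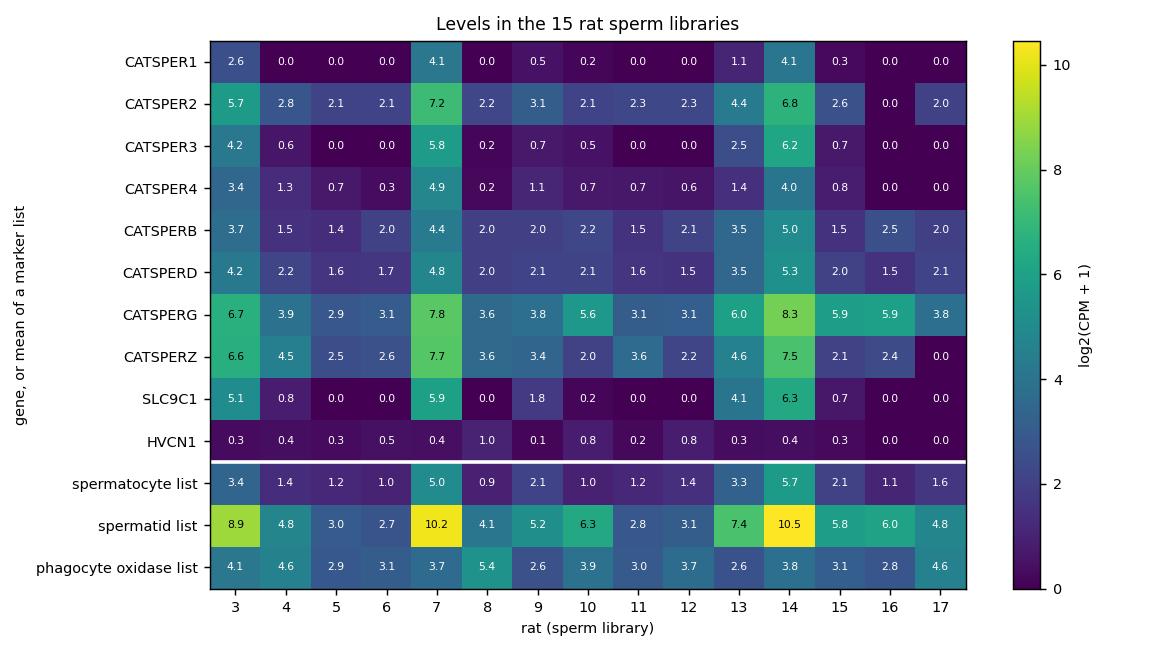
Level of each gene in the 15 rat sperm libraries as log2(CPM + 1), given in each cell and by colour, and below the white line the mean of the same measure over 3 gene lists. Rats 3, 7, 13 and 14 are high for 9 genes and for the spermatocyte and spermatid lists, and HVCN1 varies apart from them.

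Within rat sperm the 4 libraries of rats 3, 7, 13 and 14 held 98.1% of the summed CPM of CATSPER1, 98.4% of CATSPER3, 98.0% of SLC9C1, 89.9% of CATSPER4, 88.2% of CATSPER2 and 86.5% of CATSPERZ. They held 75.7% for CATSPERD, 73.8% for CATSPERG and 70.4% for CATSPERB, and 23.0% for HVCN1. Genes of meiosis and of nuclear condensation were as uneven, with 97.8% for SYCP3, of the synaptonemal complex, and 98.8% for TNP1, a transition protein, whereas ODF1, of the outer dense fibres, had 52.2%. As a description over these 15 libraries, Pearson correlations of log2(CPM + 1) between 9 of the genes were 0.68 to 0.99, and those of HVCN1 with each of them were -0.10 to 0.09. Of these 9, 8 followed the mean of 6 spermatocyte genes at r = 0.82 to 0.97, among them CATSPER3 at 0.97. CATSPERG followed the spermatocyte genes at 0.83, within that range, and the 12 spermatid and sperm genes at 0.97. Both lists were high in rats 3, 7, 13 and 14. Values of the other 8 with the spermatid and sperm genes are not given, so no closer match to either list is claimed for them. The part of the makeup of the samples in these differences between libraries was not tested. The genes most like the mean of the 4 pore genes were HMGB4L1, ART5, PNPLA5, LRRC23 and ZFP950L1, with r = 0.99 over 15 libraries and 0.83 to 0.88 over the 11 others. Those most like HVCN1 in rat sperm were GP6, GVIN1, ITGA4, KLRK1 and LY49SI3L1, at r = 0.87 to 0.93, and HVCN1 followed the 6 microglia and macrophage genes at r = 0.68.

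In the rat ovary CATSPER1, CATSPER3 and CATSPER4 stayed near 0, and 4 of the other genes differed from female brain. Of 6 genes that passed the filter 2 were called higher and 2 lower, where 27.7% and 29.2% of the 20801 genes tested were called higher and lower. Their median log2 fold change was -0.52, and 0.02 over all genes. CATSPERZ ranged from 0.452 through 0.723 to 1.48 CPM in ovary and from 9.02 through 14.5 to 17.9 CPM in female brain. The groups did not overlap on the scaled level and overlapped on plain totals. CATSPERZ fell by 4.04 on the log2 scale, or 16.5-fold (SE 0.18, adjusted p from edgeR = 1.69e-19). Its neighbour KCNK4 stood at 0.431 ± 0.160 CPM (SD, n = 14) in ovary and 26.3 ± 3.49 CPM (SD, n = 14) in female brain. CATSPERB ranged from 0.0145 through 0.0901 to 0.250 CPM in ovary and from 0.221 through 0.437 to 0.955 CPM in female brain. All but 1 ovary lay below every brain, and CATSPERB fell by 2.21 (SE 0.30, adjusted p from edgeR = 7.00e-08). CATSPERB passed the filter mainly through its brain libraries, with 1 to 16 counts in each ovary, so its direction was largely set by the filter.

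CATSPERD and HVCN1 were higher in ovary than in female brain, and neither overlapped. CATSPERD ranged from 2.56 through 3.50 to 4.39 CPM in ovary and from 1.05 through 1.79 to 2.13 CPM in brain, a difference of 1.02 ± 0.11 (SE; adjusted p from edgeR = 3.04e-10). It lies at the threshold of the call, and came to 0.99 with relative log expression (RLE) factors. HVCN1 ranged from 1.14 through 2.21 to 4.71 CPM in ovary and from 0.427 through 0.811 to 1.06 CPM in brain, a difference of 1.54 ± 0.17 (SE; adjusted p from edgeR = 1.09e-09). CATSPER2, at -0.53 ± 0.09 (SE), and CATSPERG, at -0.52 ± 0.15 (SE), had adjusted p-values from edgeR of 5.94e-06 and 0.00233 and stayed under the fold threshold. CATSPER3 had 154 counts over the 14 ovaries and 24 over the 14 female brains, and 13 of 14 ovaries lay above every brain; with no filter it was called higher by 2.42 ± 0.40 (SE; adjusted p from edgeR = 2.19e-06), at levels of 0.0593 to 0.549 CPM in ovary.

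Sperm and ovary of the rat differed in 7 of the 7 genes that passed the filter, 6 higher and 1 lower in sperm, where 22.9% and 27.9% of the 19611 genes tested were called higher and lower. Their median log2 fold change was 3.99, and -0.12 over all genes. CATSPERB did not overlap: its lowest sperm library, at 1.57 CPM, lay above its highest ovary, at 0.250 CPM, and the difference was 6.25 ± 0.62 (SE), or 75.9-fold (adjusted p from edgeR = 3.18e-10). HVCN1 did not overlap in the other direction, with 1.02 CPM in the highest sperm library and 1.14 CPM in the lowest ovary. It fell by 2.73 (SE 0.43, adjusted p from edgeR = 1.87e-06). HVCN1 held 73 to 324 counts in each ovary, enough to pass the filter whatever its level in sperm. Sperm libraries held 0 to 45, and the 2 at 0 were those of rats 16 and 17. CATSPERG, CATSPERZ, CATSPER2 and CATSPER4 were higher by 3.81, 5.70, 3.99 and 6.68. CATSPER4 and CATSPERB passed the filter mainly through their sperm libraries, with 1 to 11 and 1 to 16 counts in each ovary. The direction of both was therefore largely set by the filter. CATSPERD was higher by 1.35 ± 0.47 (SE; adjusted p from edgeR = 0.0110), but its sperm libraries lay on both sides, with 4 above every ovary and 5 below every ovary, and the difference was -0.11 without rats 3, 7, 13 and 14 (adjusted p from edgeR = 0.543).

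In sheep, 5 of the genes stood higher in sperm than in brain on every scale tried, and for 4 others the direction was set by the scaling. Of the 9 genes that passed the filter in sheep sperm against the mean of the 10 regions, 7 were called higher and 1 lower, where 33.1% and 41.1% of the 21859 genes tested were called higher and lower. Their median log2 fold change was 2.10, and -0.42 over all genes. On plain library totals, which moved the median of all genes by -2.42, 4 were called higher and 4 lower. In that setting 3249 of all 21859 genes tested were called higher and 15084 lower. The main sheep fit counts the 50 brain libraries of 5 sheep as separate, so its SE and p-values do not measure the spread between sheep. With no filter CATSPER1 had an SE of 0.57 and an adjusted p from edgeR of 1.63e-11. With the regions of each sheep summed these were 1.56 and 3.74e-05. CATSPER4, CATSPERG, CATSPERZ and SLC9C1 were called in each of 14 alternatives, summed regions among them.

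CATSPER1 was read in every sheep sperm library, with 25, 5, 5, 7 and 142 counts in sheep 687, 688, 690, 694 and 699, and with 1 count over the 50 brain libraries. All 5 sperm libraries lay above the whole of brain, and the pooled ratio on plain totals was 2558 with an exact 95% counting interval of 453 to 101575. CATSPER4 stood at 4.97, 18.2, 12.5, 4.44 and 15.4 CPM in the sperm of sheep 687, 688, 690, 694 and 699, against 0 through 0.0801 to 0.264 CPM in brain, without overlap. Its difference was 6.91 ± 0.24 (SE) on the log2 scale, or 120-fold (adjusted p from edgeR = 8.50e-31), and 4.50 on plain totals. The other pore subunits overlapped with brain. CATSPER2 stood at 3.49, 0.890, 1.32, 3.11 and 2.92 CPM in sperm in the same order of sheep, and at 1.08 through 1.62 to 3.45 CPM in brain, and CATSPER3 at 8.32, 0.162, 2.96, 0.333 and 8.65 CPM against 0.492 through 0.919 to 2.10 CPM. CATSPER2 was not called at 0.54 ± 0.18 (SE; adjusted p from edgeR = 0.00517), and CATSPER3 was called higher by 2.10 ± 0.29 (SE; adjusted p from edgeR = 6.10e-09). On plain totals both were lower, by log2 values of -1.98 and -0.70, so their direction in sheep sperm flips with the scaling.

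**Figure D3:**
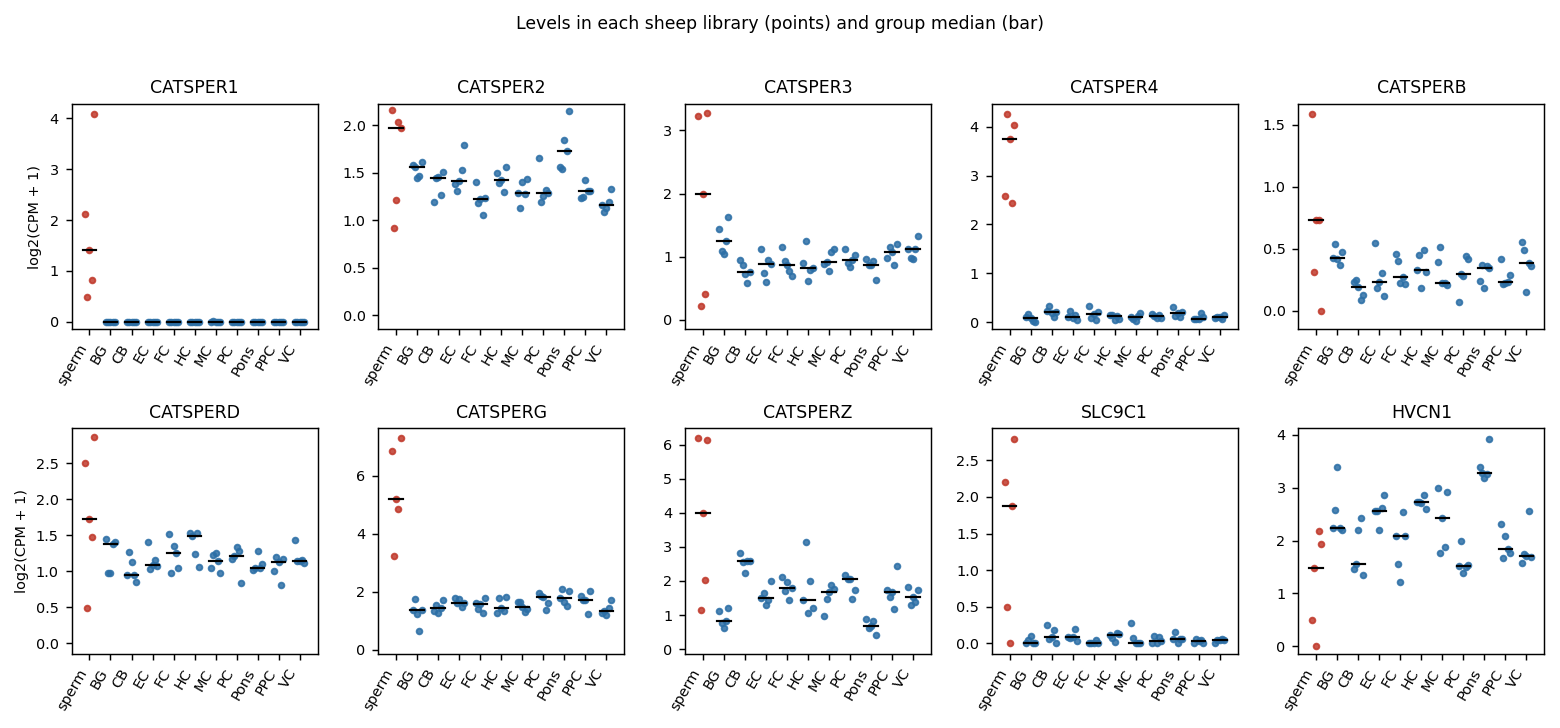
Level of each gene, as log2(CPM + 1) with its own range in each panel, in the 5 sperm libraries (red points) and in the 5 libraries of each brain region (blue points) of the sheep, with the group median as a bar. On this scale CATSPER1, CATSPER4 and CATSPERG do not overlap between sperm and brain, CATSPERZ is highest in the cerebellum among regions, and HVCN1 is highest in the pons. On plain totals CATSPERG overlaps.

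Among the auxiliary subunits in sheep sperm CATSPERG and CATSPERZ kept their direction under each scaling. CATSPERG stood at 114, 8.41, 35.5, 27.9 and 157 CPM in sheep 687, 688, 690, 694 and 699, against 0.583 through 2.01 to 3.28 CPM in brain. The groups did not overlap on the scaled level, and the difference was 5.12 ± 0.19 (SE) on the log2 scale, or 34.8-fold (adjusted p from edgeR = 6.45e-30). On plain totals they overlapped, with 2.12 CPM in the lowest sperm library and 3.77 CPM in the highest brain library. The summed level of the 12 spermatid and sperm genes was 7924, 239, 2877, 851 and 7998 CPM in the same sheep, so that CATSPERG and this list put the 5 animals in the same order. CATSPER4 did not: it was highest in sheep 688, which had the lowest spermatid level. Sheep 688 also had the highest summed levels of the neutrophil and squamous lists, at 158802 and 86125 CPM. By the mean of log2(CPM + 1) the neutrophil list was highest in sheep 694, at 8.63 against 8.44 in sheep 688. CATSPER4 was lowest in sheep 694. The part of either list in these values was not tested. CATSPERZ stood at 72.2, 1.21, 14.8, 3.11 and 70.3 CPM in sperm, and 3 libraries lay above the highest brain, at 7.77 CPM. It was higher by 4.01 ± 0.29 (SE; adjusted p from edgeR = 5.80e-18).

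CATSPERB and CATSPERD were called higher in sheep sperm by 1.52 ± 0.41 and 1.30 ± 0.23 (SE), with adjusted p-values from edgeR of 0.000798 and 1.57e-06, on 26 and 119 counts over the 5 sperm libraries. On plain totals both were lower, at -1.16 and -1.35, so their direction flips with the scaling. CATSPERB lost its call without sheep 687, at 0.62, and CATSPERD without sheep 699, at 0.79. With the regions of each sheep summed, so that 5 sperm libraries stood against 5 brains, CATSPER3, CATSPERB and CATSPERD had adjusted p-values from edgeR of 0.0547, 0.121 and 0.0953.

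SLC9C1 stood at 3.62, 0.405, 0, 2.66 and 5.95 CPM in the sperm of sheep 687, 688, 690, 694 and 699. Brain ranged from 0 through 0.0314 to 0.214 CPM, below 4 of the 5 sperm libraries. The difference was 6.16 ± 0.49 (SE) on the log2 scale, or 71.5-fold (adjusted p from edgeR = 1.54e-16). SLC9C1 did not pass the filter over the brain libraries alone. It was tested here by way of its sperm counts, so its direction was largely set by the filter. HVCN1 stood at 0.403, 1.78, 0, 3.55 and 2.81 CPM in sperm and at 1.33 through 3.66 to 14.2 CPM in brain, and 2 sperm libraries lay below every brain library. It fell by 1.08 (SE 0.34; adjusted p from edgeR = 0.00367), and by 0.83 without sheep 687 and 0.86 without sheep 690, where it was not called. Its direction was the same under each scaling tried, but it was not called with RLE or upper quartile factors or DESeq2, at -0.86, -0.38 and -0.84.

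**Figure D4:**
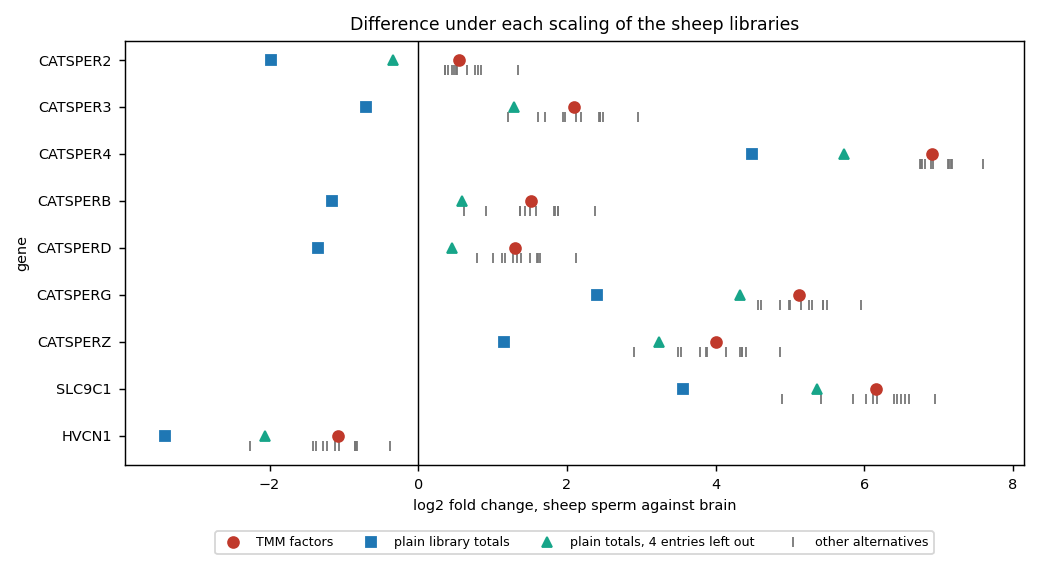
Log2 fold change of sheep sperm against the mean of the brain regions for the 9 genes tested, under TMM factors (circles), plain totals (squares), plain totals after the 4 most abundant entries of sheep sperm are left out (triangles) and the other alternatives (ticks). CATSPER4, CATSPERG, CATSPERZ and SLC9C1 stay above 0 and HVCN1 below 0 under each, and CATSPER2, CATSPER3, CATSPERB and CATSPERD change side.

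Other genes that work with the channel or with sperm pH were counted in sperm against brain, against a background over all genes of 33.1% higher and 41.1% lower for sheep, and 27.7% and 31.5% for rat. Of 6 further CatSper partners, 3 of 5 tested were called higher in sheep sperm, with a median of 1.79, and 3 of 3 tested in rat sperm, with a median of 3.27. C2CD6, which brings the channel to the flagellum, was higher by 6.55 ± 0.30 (SE) in sheep, and CATSPERE, a canopy subunit, by 3.71 ± 0.43 (SE) in sheep and 3.75 ± 0.73 (SE) in rat. Of 17 genes of ion transport, pH and cyclic AMP in sperm, 5 of 14 tested were higher and 3 lower in sheep, with a median of -0.29, and 7 of 13 higher and 1 lower in rat, with a median of 1.14. The 5 of 14 higher in sheep is near the share over all genes. KCNU1, the sperm potassium channel, was higher by 10.96 ± 0.43 (SE) in sheep, and ATP1A4, the sperm sodium pump, by 7.20 ± 1.21 (SE) in rat. Of this list 14 genes passed the filter in sheep sperm against brain, and 13 over the brain libraries alone. A gene near 0 in brain passes through its sperm counts, and its direction is then largely set by the filter. Whether this holds for KCNU1 or ATP1A4 was not tested. PRKACA, the catalytic subunit of protein kinase A, was lower in sheep at -4.12 ± 0.35 (SE), and ATP2B4, a calcium pump of the plasma membrane, was lower in rat at -4.47 ± 0.40 (SE). HVCN1 was lower in sperm of both species, whereas genes of the phagocyte oxidase, whose proton load it relieves in phagocytes, were higher there. Of these genes 5 of 5 tested were higher in sheep sperm and 6 of 6 in rat sperm, with medians of 5.04 and 2.48. B-cell markers were also higher, 5 of 5 tested in sheep sperm and 4 of 5 in rat sperm, with medians of 5.78 and 4.91. Of the 6 microglia and macrophage markers 5 were lower and 0 higher in sheep sperm, with a median of -2.33. In rat sperm 3 of the 6 were lower and 1 higher, with a median of -1.38. In rat ovary against female brain HVCN1 was higher by 1.54, where 27.7% and 29.2% of all genes were called higher and lower. Of the oxidase genes 5 of 6 were higher there, with a median of 2.60. Of the B-cell markers 3 of 4 tested were higher and 1 lower. Of the microglia and macrophage markers 2 of 6 were lower, near the share over all genes, and 0 higher, with a median of -0.68. The part of these lists in the level of HVCN1 was not tested.

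**Figure D5:**
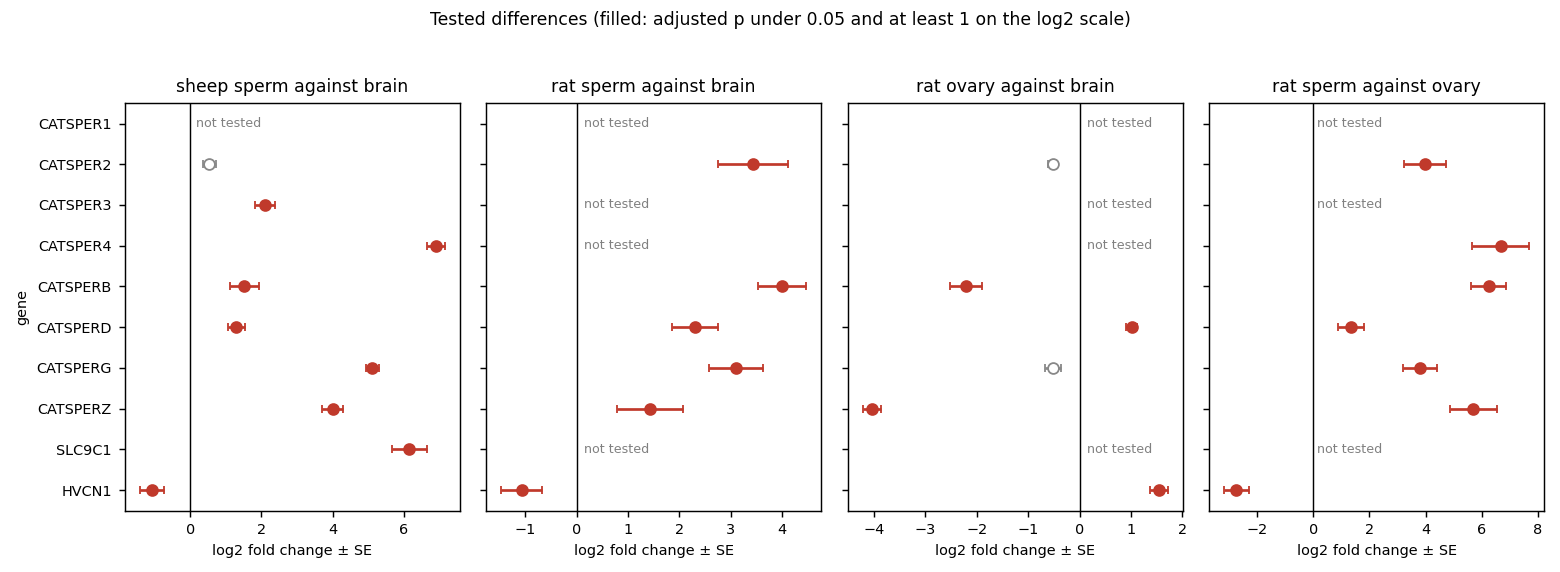
Log2 fold change and its standard error (bars) for each gene in 4 comparisons, filled where the adjusted p was under 0.05 and the change at least 1 in size. The pore and auxiliary genes that were tested lie on the sperm side in the 3 comparisons of sperm. CATSPER1 was tested in none, and CATSPER2 was the only pore gene tested in rat sperm against brain. HVCN1 lies on the other side in each comparison of sperm, and in ovary CATSPERZ lies furthest below brain. The sides of CATSPER2, CATSPER3, CATSPERB and CATSPERD in sheep flip on plain totals, and that of CATSPERZ in rat sperm against brain with the animal as a block.

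Among the 10 sheep brain regions 3 of the 8 genes tested were called different, at an adjusted p under 0.05 by an F test over the regions and a range of at least 1 on the log2 scale, where 52.4% of the 21147 genes tested were. Their median range was 1.27, and 1.26 over all genes. CATSPERZ was highest in the cerebellum, at 4.97 ± 0.87 CPM (SD, n = 5), and lowest in the basal ganglia, at 0.888 ± 0.330, and the pons, at 0.610 ± 0.207 CPM (SD, n = 5). The other 7 regions had means of 1.98 to 2.98 CPM, and each neighbour in this order overlapped the next except that every visual cortex lay above every basal ganglia library. The range was 2.98 on the log2 scale (adjusted p from edgeR = 3.06e-07). One hippocampus library held 7.77 CPM, the highest of all 50. KCNK4 was lowest in the same 2 regions, at 5.31 ± 1.37 CPM in basal ganglia and 2.58 ± 1.00 CPM in pons (SD, n = 5), and over the 50 libraries, which share animals, CATSPERZ and KCNK4 had r = 0.82. Over the 29 rat brains r was 0.65. In rat sperm KCNK4 was 2.48 ± 1.41 CPM (SD, n = 15), and r with CATSPERZ over those 15 libraries was 0.55.

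HVCN1 was highest in the pons, at 9.82 ± 2.50 CPM (SD, n = 5), and every pons library lay above every library of the hippocampus, next in order at 5.63 ± 0.42 CPM. The pons did not stand apart from every region, since the basal ganglia of sheep 690, at 9.46 CPM, lay within its range of 8.06 to 14.2 CPM. Basal ganglia, entorhinal cortex and motor cortex followed at 5.10, 4.96 and 4.59 CPM, and frontal cortex, posterior parietal cortex, visual cortex, cerebellum and prefrontal cortex at 2.91, 2.88, 2.74, 2.64 and 2.04 CPM, each overlapping the next. The range was 2.31 on the log2 scale (adjusted p from edgeR = 1.57e-07). The genes most like HVCN1 over the 50 libraries were PLEKHH1, PLA2R1, CLDN11, MYRF and TMEM88B, at r = 0.91 to 0.92, and CLDN11 and MYRF belong to myelin and to oligodendrocytes. HVCN1 followed the mean of 4 oligodendrocyte genes at r = 0.87 and that of 6 microglia and macrophage genes at 0.17. Over the 29 whole rat brains these values were -0.24 and 0.41. They are descriptions over libraries that share animals and regional makeup.

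CATSPER3 was called over a range of 1.06 on the log2 scale (adjusted p from edgeR = 0.00460), from 1.48 ± 0.43 CPM in basal ganglia to 0.720 ± 0.167 CPM in cerebellum (SD, n = 5), with every neighbour in the order overlapping. It lost the call in 3 of 11 alternatives: without sheep 694, at 0.98, without sheep 699, at 0.86, and where the range was smallest, at 0.64. On plain totals its means were 1.48 CPM in basal ganglia and 0.950 CPM in cerebellum. CATSPER2 ranged over 0.99 (adjusted p from edgeR = 3.67e-05), just under the threshold, with the pons highest at 2.45 ± 0.63 CPM. CATSPER4, CATSPERB, CATSPERD and CATSPERG had ranges of 1.48, 1.47, 0.62 and 0.81 and adjusted p-values from edgeR of 0.139, 0.132, 0.198 and 0.0565. CATSPER1 and SLC9C1 did not pass the filter. SLC9C1 had 149 counts over the 50 libraries, with 17 libraries at 0, and CATSPER4 had 323.

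The step from brain to sperm was compared between the species over 15172 symbols that both tables hold, after the 10 regions of a sheep had been added up into 1 brain. Sheep RNA came from TRIzol extraction and Kapa libraries and rat RNA from Zymo extraction and Watchmaker libraries, so species and preparation cannot be told apart. Of the 10 genes tested 4 were called lower, meaning that the step from brain to sperm was more positive in rat than in sheep, and 0 higher, where 38.4% and 23.9% of all genes were called lower and higher. The median was -0.64, and -0.69 over all genes, and 4 of 10 lower is near the share over all genes. CATSPER3 differed by -6.72 ± 2.19 (SE) on the log2 scale, SLC9C1 by -5.76 ± 2.35, CATSPER2 by -3.00 ± 1.201 and CATSPERB by -2.54 ± 0.92, with adjusted p-values from edgeR of 0.00717, 0.0302, 0.0274 and 0.0153. For SLC9C1 the rat side rests on 3 counts in male brain, so that its size depends on the prior count. Without the sperm libraries of rats 3, 7, 13 and 14 these differences were -1.06, -0.45, -0.22 and -1.16 and none of the 4 was called, and 4 other genes (CATSPER1, CATSPER4, CATSPERG and CATSPERZ) were called higher, that is more positive in sheep. With the animal as a block 2 genes were called lower and 1 higher: CATSPER2, at -1.11, and CATSPER3, at -3.93, lost their calls (adjusted p from edgeR = 0.405 and 0.0650), and CATSPERG was called at 2.62 (adjusted p from edgeR = 0.0287). CATSPER2 was also not called without sheep 688, 690 or 699, CATSPERB without 688, and SLC9C1 without 687, 688, 690 or 694.

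HVCN1 differed between the species by -0.20 ± 0.82 (SE; adjusted p from edgeR = 0.854) and CATSPERD by -1.08 ± 0.85 (SE; adjusted p from edgeR = 0.267), and a difference was not shown for either. CATSPERG, at 1.92 ± 0.97 (SE), and CATSPERZ, at 2.25 ± 1.27 (SE), leaned towards sheep with adjusted p-values from edgeR of 0.0795 and 0.118, and CATSPER1 and CATSPER4, at 1.497 and 0.47, had adjusted p-values from edgeR of 0.630 and 0.790.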

How the data were processed

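Gene counts were deposited by the authors, one column per library and not normalized. Per the labels, reads of 150 bases from both ends were trimmed with Trimmomatic 0.39, aligned with STAR 2.7.5a to GRCr8 for rat and ARS-UI_Ramb v3.0 for sheep, and counted with Rsubread 2.20.0 in R 4.4.2. Sources used here do not state how strand and reads with several matches were handled. Tests used edgeR 4.0.16 (quasi-likelihood, R 4.3.3) with TMM factors, the default low-count filter (filterByExpr, minimum count 10) and a prior count of 0.125. DESeq2 1.42.0 and limma 3.58.1 (voom) served as alternatives. For sheep, the 55 libraries entered one fit and sperm was contrasted with the average over regions. P-values were adjusted over all genes tested. The SE of an edgeR fold change was computed back from the F statistic, and rests on a spread fitted over all groups. The fits were tested on simulated data with 200 genes changed. Matched libraries come from the same animal, per the labels. Deviations of the libraries of one animal from their group means correlated at -0.07 to 0.15 in male rats, -0.05 to 0.09 in female rats and 0.03 to 0.08 in sheep. Pooled ratios carry exact binomial intervals that cover counting error only. The genes and lists were chosen with earlier results of these data known. The further genes named were the called genes of a list with the largest change in each direction and the 5 genes most like a profile. Neighbours, positions and promoter sequences are from RefSeq for GRCr8.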

Additional observations from a re-analysis of the deposited data

Results flagged for a closer look

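The step from brain to sperm differed between sheep and rat, by the species by tissue term of edgeR's quasi-likelihood test, for CATSPER3 by -6.72, SLC9C1 by -5.76, CATSPER2 by -3.00 and CATSPERB by -2.54 on the log2 scale, sheep minus rat. None of these was called without rats 3, 7, 13 and 14.

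Single sheep libraries stood far from the other 4 of their group in 9 of 99 groups examined. Chance flags about 1 in 20 groups where values are independent and normally spread. Some CPM here are near 0 and the groups share the same sheep, so the share flagged by chance is not known. CATSPER1 was 16.0 CPM in the sperm of sheep 699, against 3.36 CPM in the next. HVCN1 was 9.46 CPM in the basal ganglia of sheep 690, 2.95 CPM in the prefrontal cortex of sheep 688, 14.2 CPM in the pons of sheep 699 and 4.89 CPM in the visual cortex of sheep 694, each the highest of its region, with the next at 4.98, 1.91, 9.51 and 2.35 CPM. Sheep 687 was highest for CATSPER2 in the prefrontal cortex, at 2.16 CPM, for CATSPERD in the visual cortex, at 1.70 CPM, and for SLC9C1 in the motor cortex, at 0.214 CPM from 15 counts, and held 0 counts of SLC9C1 (0 CPM) in the visual cortex.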

How the results depend on the processing

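In sheep sperm against brain (7 genes higher, 1 lower), plain library totals gave 4 higher and 4 lower, where 3249 and 15084 of all 21859 genes were. They reversed CATSPER2 to -1.98, CATSPER3 to -0.70, CATSPERB to -1.16 and CATSPERD to -1.35. The 1 gene lower, HVCN1, became 0 with RLE factors, upper quartile factors, DESeq2 or summed regions, and 0 to 1 when each sheep was left out in turn. In rat sperm against brain (5 higher, 1 lower), 9 were higher with no low-count filter and 8 with DESeq2, which test more of the genes. CATSPERZ reversed to -0.32 with DESeq2. In rat ovary against brain (2 higher), 1 was higher with RLE factors and 4 with no filter. Among regions (3 called), leaving out a sheep gave 2 to 5, the 5 without sheep 687. For the species difference (0 higher, 4 lower), RLE, upper quartile factors and DESeq2 each gave 2 higher and 1 lower, and HVCN1 reversed to 0.72, 0.54 and 0.76 under them. Plain totals reversed CATSPER4 to -0.024. Leaving out each sheep gave 1 to 3 lower, with 1 without sheep 688 and 2 without sheep 690. It put HVCN1 between -0.59 and 0.14, reversed without sheep 687 (0.12) and 690 (0.14), and CATSPER1 between -0.046 (reversed, without 699) and 2.22. The animal as a replicate block reversed CATSPERZ in rat sperm against brain to -0.45, gave 1 higher and 2 lower for the species difference, and changed no other call than those of CATSPER2, CATSPER3 and CATSPERG in the species difference; 4 genes were then higher in rat sperm. Without rat sperm 16 and 17, 0 genes were lower than brain. Voom with quality weights gave 4 genes higher and 0 lower for sheep and 2 higher for rat sperm (CATSPER2 and CATSPERB), with CATSPERZ at -0.76 there and CATSPERD at -0.20 in sperm against ovary. The other alternatives were chosen after seeing the data. Leaving the 4 most abundant entries out of plain totals put CATSPER2 at -0.34 in sheep. Without rat sperm 3, 7, 13 and 14, 2 were higher than brain (CATSPERB and CATSPERG) and 0 lower, CATSPERZ was -0.996 and CATSPERD against ovary -0.11, and the species difference had 4 higher and 0 lower, with CATSPERD at 0.62. Without rat brain library 1, 1 gene was higher in ovary. The cause of these changes was not tested. In the remaining settings the direction of every tested gene was as reported. Sheep sperm counts of CATSPERB and HVCN1, 26 and 82 in all, limit what can be said of them, and so do 5 animals a group.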

Other observations

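Of the 17 genes of ion transport, pH and cyclic AMP in sperm, 13 were tested in rat ovary against female brain, and 3 were called higher and 6 lower by edgeR's quasi-likelihood test, where 27.7% and 29.2% of all genes were. Their median log2 fold change was -0.24, and 0.02 over all genes. The 3 of 13 higher is near the share over all genes. SLC4A2, an anion exchanger, was higher by 2.01 and CFTR, a chloride channel, by 1.81, and the sodium-proton exchanger SLC9B2 was lower at -3.81. In rat sperm against ovary 8 of 13 tested were higher and 3 lower, where 22.9% and 27.9% of all genes were. ATP1A4 was higher by 9.14 and ADCY10, the bicarbonate-sensitive adenylyl cyclase, by 5.08. Whether either passed the filter only through its sperm counts, which would largely set its direction, was not tested.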
